A study of Rattus norvegicus with 18 samples.

Results

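The genes described here are 9 genes of the anterior pituitary gland, read in RNA from whole rat brains: the hormone genes Gh1, Prl, Pomc, Cga, Tshb, Lhb and Fshb, the transcription factor gene Pou1f1 and the receptor gene Ghrhr. They were chosen by name, and 11 of the 30367 probes on the array matched, 1 probe each for the hormones and 2 each for Pou1f1 and Ghrhr. Of the 9 genes, 7 passed the filter on dim probes and were among the 21204 genes tested. Prl and Ghrhr were not well above background on all 3 arrays of any group and are given as values without a test.

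Total RNA was labelled with 1 dye (Cy3) and hybridised to 18 Agilent arrays, 3 for each of 6 groups. The groups were untreated rats of the normotensive strain WKY, the spontaneously hypertensive strain SHR and the stroke-prone strain SHRSP, at 3 and at 6 weeks of age. Per the labels, the 3 arrays of a group are biological replicates, and the number of animals behind each sample and their sex were not given in the sources used here. How the brains were dissected from the pituitary and the meninges was likewise not given.

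All 11 brain markers looked up (among them Snap25, Gad1, Gfap and Mbp) were well above background on all 18 arrays. Array medians of intensity ranged from 350 to 434, and between 81.5% and 87.5% of its spots were well above background. The labels SHR and SHRSP were checked against each other: of 85 genes whose groups under these labels lay more than 1 log2 unit apart at both ages, 53 went in opposite directions at the ages and 32 in the same one. For that reason groups are named by their labels, and only comparisons within WKY or averaged over the labels are free of the SHR and SHRSP labels. The arrays lay on 5 slides. At 3 weeks, all WKY arrays shared slide 1 with the first SHR replicate, and the remaining SHR replicates shared slide 2 with SHRSP replicates 1 and 2. On slide 3 the last SHRSP replicate of 3 weeks lay beside all WKY arrays of 6 weeks. Slides 4 and 5 held SHR and SHRSP of 6 weeks alone, so there slide and group cannot be told apart.

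The anterior pituitary lies under the hypothalamus and is made of cell types that each secrete their own hormone. Somatotropes make growth hormone (Gh1), lactotropes prolactin (Prl) and thyrotropes thyrotropin, a dimer of the chain shared by the glycoprotein hormones (Cga) and its own chain (Tshb). Gonadotropes join the same shared chain to Lhb or Fshb to make the gonadotropins, and corticotropes and melanotropes cut their peptides from the product of Pomc. Pou1f1 is the POU-homeodomain factor needed for somatotropes, lactotropes and thyrotropes, and Ghrhr is the receptor through which hypothalamic growth hormone-releasing hormone acts on somatotropes. Pomc is also transcribed in neurons of the arcuate nucleus, and Cga and Tshb are also made in the pars tuberalis, the thin pituitary sheath around the median eminence. In bulk RNA, fewer cells of a type and less RNA per cell cannot be told apart.

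The hormone probes are 60 bases long. The 3 printed are those of a gene that ranged most widely (Gh1), a gene also used by neurons (Pomc) and a gene that stayed dim on nearly all arrays (Fshb), and their capitals mark the letters of the stop codon at the end of the coding sequence. The Gh1 probe ends within that codon and shows its first 2 bases.
Gh1: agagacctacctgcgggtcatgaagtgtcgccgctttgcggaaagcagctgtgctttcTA
Pomc: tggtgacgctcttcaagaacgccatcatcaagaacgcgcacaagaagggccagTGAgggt
Fshb: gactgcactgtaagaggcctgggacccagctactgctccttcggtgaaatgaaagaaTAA
Per the file headers the coordinates refer to the rn4 build, in which these probes lie at chr10:95692241-95692300 (minus strand), chr6:26937625-26937684 (plus strand) and chr3:92569344-92569403 (minus strand). Each covers the end of the coding sequence, and per the labels' protocols the RNA was copied from an oligo-dT primer.

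Promoter sequences were matched in RefSeq (build GRCr8) for 6 of the 9 genes, with 8 entries, since Lhb and Ghrhr have 2 each. The 250 bases before each start site were searched for TATNCAT or its reverse complement ATGNATA, the core letters that POU factors such as the Pou1f1 product are known to bind. Only the Prl promoter held a match, 24 bases before the start site, and it is shown because the 4 arrays with Prl well above background include the array on which both Pou1f1 probes were highest. It lies at chr17:38298218-38298467 (minus strand), with the match in capitals.
Prl: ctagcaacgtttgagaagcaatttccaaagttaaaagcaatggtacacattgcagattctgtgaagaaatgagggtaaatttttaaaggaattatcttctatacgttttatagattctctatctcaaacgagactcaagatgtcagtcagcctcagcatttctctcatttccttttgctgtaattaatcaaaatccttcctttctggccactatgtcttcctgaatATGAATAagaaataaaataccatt
Of 27457 promoters of this length in the table, 8.49% held a match. A match is thus a description of these letters, and whether this one is a site in use was not tested.

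Levels are given below as intensities, and for comparisons as log2 intensity minus the 75th percentile of the array, so that a difference of 1 is 2-fold. On 1 array, replicate 2 of the arrays labelled SHRSP at 6 weeks, the hormone genes of somatotropes, lactotropes, thyrotropes and gonadotropes were read at levels that no other array reached, and Pomc at the second highest level. All 9 genes were well above background there, against 5 to 8 on each of the other 17 arrays. That array gave the highest value of 6 of the 7 tested genes and of 10 of the 11 probes, and over all genes it was the highest of the 18 arrays for 4.49%. Of the 7, 5 lay more than 1 log2 unit above every other array. Over all 21204 genes, 33 did so on that array, and between 8 and 34 on each of the others, so the number of such genes did not set the array apart.

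**Figure D1:**
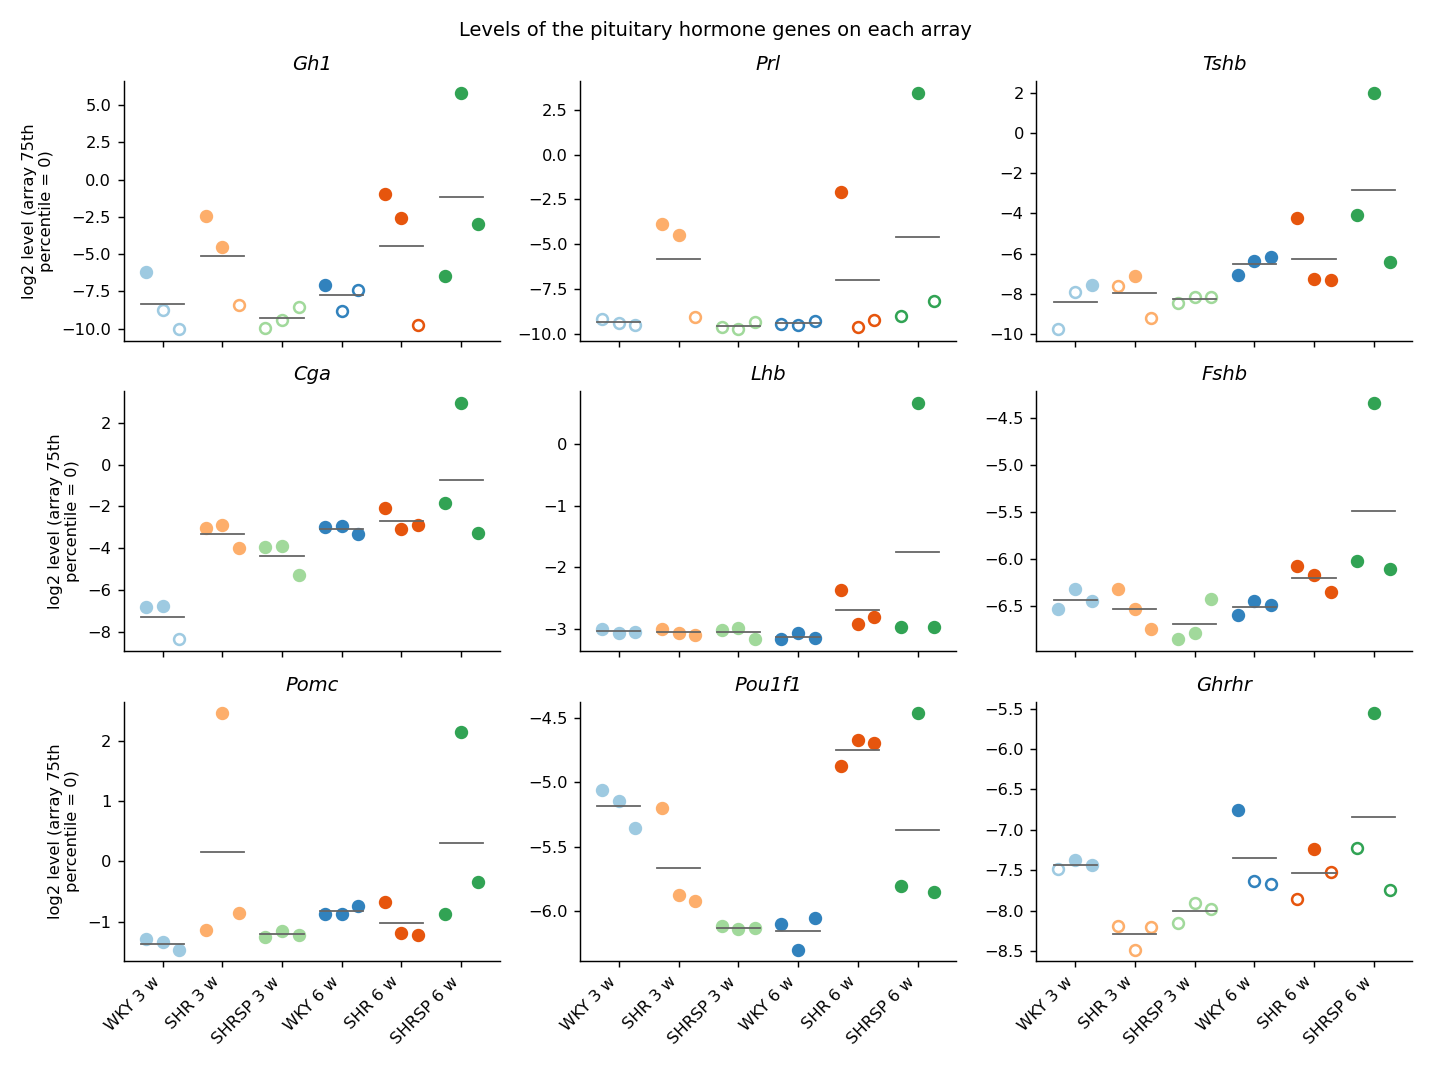
Log2 level (y axis, 75th percentile of the array at 0) of the 9 genes on each of the 18 arrays, by group on the x axis; the y axes differ. Filled points were well above background, open points were not, and grey lines are group means of 3 arrays; for Ghrhr the first of its 2 probes is drawn. SHRSP replicate 2 at 6 weeks is the highest point in every panel except that of Pomc, where SHR replicate 2 at 3 weeks lies above it.

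Gh1, growth hormone, had an intensity of 26.3, 127598 and 257 on the 3 arrays labelled SHRSP at 6 weeks, and of 1151, 358 and 2.26 on those labelled SHR. At 3 weeks the arrays labelled SHR had 426, 95.2 and 6.82, those labelled SHRSP 2.13, 3.24 and 6.49, and WKY 31.8, 5.62 and 2.35. WKY at 6 weeks had 16.4, 4.76 and 11.8. Gh1 was well above background on 9 of the 18 arrays, at least 1 in each group but the arrays labelled SHRSP at 3 weeks, and arrays of 1 group could differ from background to far above it. On the log2 scale the highest array lay 6.78 above the next, which is 110-fold.

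Prl, prolactin, was well above background on 4 arrays. Its intensity was 24790 on SHRSP replicate 2 and 531 on SHR replicate 1 at 6 weeks, and 157 and 98.3 on SHR replicates 1 and 2 at 3 weeks. The other 14 arrays, all 6 WKY arrays among them, read between 2.54 and 6.84 and were not well above background. The 4 arrays with Prl also read Gh1 well above background, while Gh1 on SHR replicate 2 and SHRSP replicate 3 at 6 weeks (358 and 257) came without Prl. The highest array lay 46.3-fold above the next. The mean of the arrays labelled SHR at 3 weeks, 2 of which were well above background, was at least 3.48-fold above WKY and at least 3.74-fold above those labelled SHRSP. Without SHR replicate 1 these bounds were 1.78-fold and 1.91-fold, and without replicate 2 they were 2.20-fold and 2.36-fold. At 6 weeks only 1 array labelled SHRSP had Prl well above background, and the bound of at least 8.28-fold above WKY rested on it, since without it the group mean was under the level used for the bound. These bounds set the group mean against the lowest level among probes well above background, and none has a test.

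Pou1f1, the regulator of these cells, was read by 2 probes that did not give the same picture. The sequence of the tested probe holds the letters GTTTT 5 times and that of the second probe 0 times. Whether this bears on their readings was not tested. The tested probe was well above background on all 18 arrays, with 71.8, 69.0 and 60.6 in WKY at 3 weeks and 32.8, 26.8 and 30.3 at 6 weeks. It read 63.7, 38.1 and 38.6 on the arrays labelled SHR at 3 weeks and 76.2, 85.6 and 75.2 at 6 weeks. On those labelled SHRSP it read 31.3, 31 and 34.3 at 3 weeks and 41.1, 102 and 34.6 at 6 weeks. The second probe was well above background on SHRSP replicate 2 at 6 weeks alone, at 89.6, and read between 2.44 and 7.15 on the other 17 arrays. Its highest array lay 12.9-fold above the next, whereas that of the tested probe lay 1.15-fold above the next.

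The levels of the tested Pou1f1 probe followed the slide. The 7 arrays of slides 1 and 4 lay between -5.35 and -4.67 on the log2 scale, and the 10 arrays of slides 2, 3 and 5 other than SHRSP replicate 2 at 6 weeks lay between -6.30 and -5.81. On slide 1, SHR replicate 1 differed from the WKY mean by -0.01, and on slide 3 WKY of 6 weeks differed from SHRSP replicate 3 of 3 weeks by -0.02. Pitx1, another factor of pituitary development, split the same way, with -0.62 to -0.36 on slides 1 and 4 and -1.11 to -0.94 elsewhere.

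Every call for Pou1f1 came from the tested probe alone and compared slides as well as groups. It was lower in WKY at 6 than at 3 weeks by 0.97 ± 0.28 (SE, n = 3; limma with Benjamini-Hochberg adjusted p = 0.013; 44.2% of all genes called), and lower in the arrays labelled SHRSP than in WKY at 3 weeks by 0.95 ± 0.28 (adjusted p = 0.016; 40.5% called). In the arrays labelled SHR it was higher than in WKY at 6 weeks by 1.41 ± 0.28 (adjusted p = 0.0014; 40.9% called) and higher at 6 than at 3 weeks by 0.92 ± 0.28 (adjusted p = 0.016; 48.2% called). Its age change differed from that of WKY by 1.88 ± 0.40 (adjusted p = 0.0021; 39.2% called) for the label SHR and by 1.72 ± 0.40 (adjusted p = 0.0060; 30.8% called) for SHRSP. With slide as a fixed block, the WKY age change was -0.27 (adjusted p = 0.845) and the SHRSP difference from WKY at 3 weeks -0.25 (adjusted p = 0.829). The other 4 comparisons have no value within slides. The rise in SHR with age was lost without SHR replicate 2 (adjusted p = 0.060) or 3 (adjusted p = 0.067) of 3 weeks, and the SHRSP difference from WKY at 3 weeks without WKY replicate 1 (adjusted p = 0.052).

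Ghrhr, the receptor that drives growth hormone release, was dim on all arrays. Its probes were well above background on 5 and 3 arrays, and both were highest on SHRSP replicate 2 at 6 weeks, at 47.8 and 35.9. The next array was WKY replicate 1 at 6 weeks for both, at 20.9 and 23.3. The gaps on the log2 scale were 2.29-fold and 1.54-fold, so both probes put the same 2 arrays first.

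Cga, the chain shared by thyrotropin and the gonadotropins, was well above background on 17 arrays and varied with age and label as well as with the 1 high array. Its intensity was 21.1, 22.4 and 7.47 in WKY at 3 weeks (the last not well above background) and 287, 271 and 203 at 6 weeks. It was 287, 304 and 145 on the arrays labelled SHR at 3 weeks and 527, 259 and 259 at 6 weeks, and 143, 148 and 61.9 and then 647, 17382 and 205 on those labelled SHRSP. WKY at 3 weeks was thus the lowest group, and none of its arrays reached any array of another group. The share of all genes whose arrays likewise did not overlap with those of WKY at 3 weeks was 38.4% for SHR and 54.8% for SHRSP of that age, and 57.9% for WKY of 6 weeks.

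In order of the group means, Cga stood at -7.32 ± 0.91 (SD, n = 3) in WKY of 3 weeks, -4.36 ± 0.79 in SHRSP of 3 weeks, -3.30 ± 0.62 in SHR of 3 weeks and -3.08 ± 0.20 in WKY of 6 weeks. SHR and SHRSP of 6 weeks followed at -2.69 ± 0.53 and -0.72 ± 3.26. Beyond the first step, each neighbouring pair in that order overlapped in its arrays. Cga was higher by 4.02 ± 1.11 in the arrays labelled SHR than in WKY at 3 weeks (limma adjusted p = 0.016; 28.5% of all genes called) and by 2.96 ± 1.11 in those labelled SHRSP (adjusted p = 0.046). In WKY it rose with age by 4.24 ± 1.11 (adjusted p = 0.0069), and averaged over the labels by 2.83 ± 0.64 (adjusted p = 0.0026; 46.8% called).

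Within slide 1, SHR replicate 1 lay 4.30 above the 3 WKY arrays in Cga, and within slide 3 the WKY arrays of 6 weeks lay 2.20 above SHRSP replicate 3 of 3 weeks. With slide as a fixed block, the Cga differences at 3 weeks were 4.30 (adjusted p = 0.155) and 3.84 (adjusted p = 0.343) and the age change of WKY 6.03 (adjusted p = 0.222). Another background correction (normexp) brought the WKY age change down to 1.98 (adjusted p = 0.096), and it gave 1.86 (adjusted p = 0.157) and 1.11 (adjusted p = 0.374) for the differences at 3 weeks. The call between SHR and WKY was lost without SHR replicate 2 (adjusted p = 0.059) or WKY replicate 3 (adjusted p = 0.056) of 3 weeks, and that of SHRSP without any 1 WKY array or SHRSP replicate 1 or 2.

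Tshb, the chain that makes thyrotropin specific, was well above background on 11 arrays: all 9 of 6 weeks and 2 of 3 weeks. Its intensity was 17.1, 25.8 and 28.6 in WKY at 6 weeks, 118, 14.3 and 12.4 on the arrays labelled SHR and 136, 8943 and 23.4 on those labelled SHRSP. At 3 weeks all 9 arrays read between 2.79 and 16.1. The arrays of 6 weeks were thus mostly a little above background, with 3 of them far higher, and averaged over the labels the fitted difference was 3.00 ± 0.89 (limma adjusted p = 0.013). Tshb passed the filter on dim probes only through groups of 6 weeks, where it is high, and most arrays of 3 weeks give no more than an upper limit. Its age difference is therefore a description, and each adjusted p for it is printed as the fit gave it. Without the filter the adjusted p was 0.019, with most arrays of 3 weeks still no more than upper limits. Without SHRSP replicate 2 the difference was 2.20 ± 0.52 (adjusted p = 0.0042), and the call was lost with slide as a random block (adjusted p = 0.087) or with normexp (1.37, adjusted p = 0.078). Within slide 3, WKY of 6 weeks lay 1.65 above SHRSP replicate 3 of 3 weeks.

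**Figure D2:**
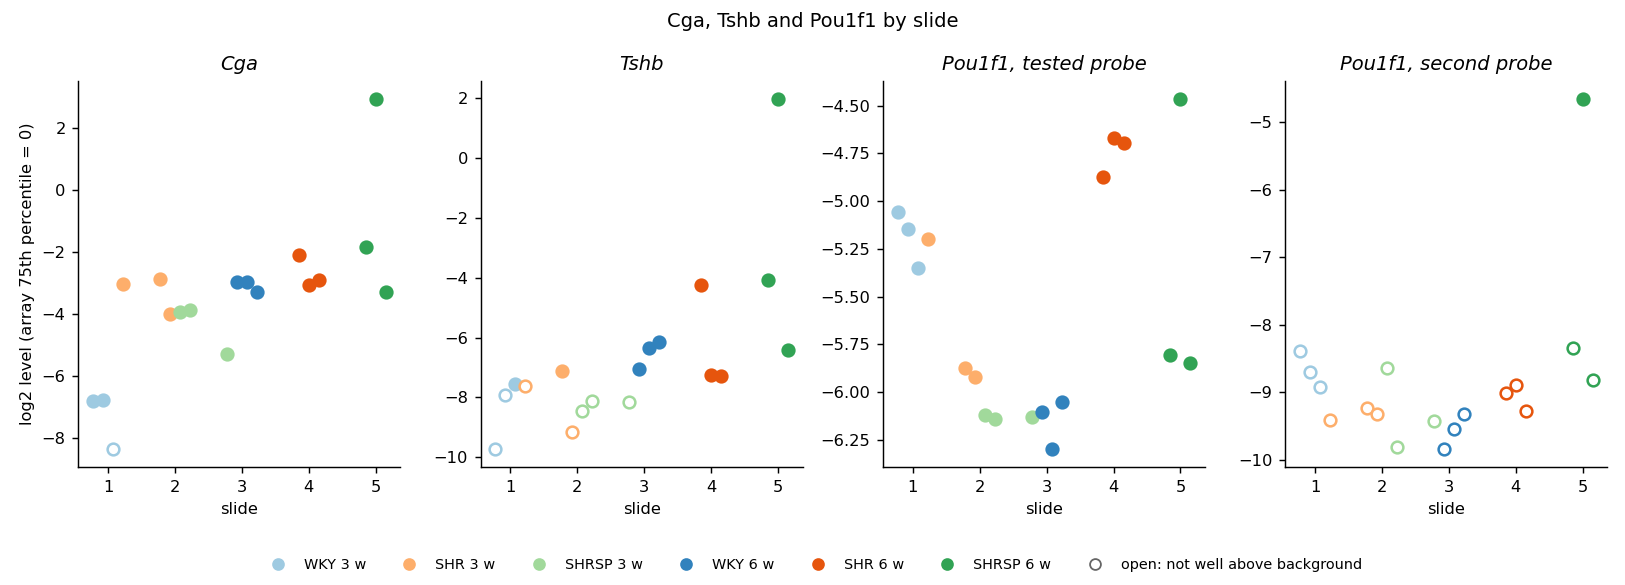
Log2 level (y axis) of Cga, Tshb and the 2 probes of Pou1f1 on the arrays of each of 5 slides (x axis), coloured by group; open points were not well above background. The tested Pou1f1 probe lies between -5.35 and -4.67 on slides 1 and 4, and its second probe is above background on 1 array alone.

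Lhb, the specific chain of luteinizing hormone, was read at a nearly even level. Its intensity lay between 229 and 301 on 16 of the 18 arrays, at 436 on SHR replicate 1 at 6 weeks and at 3548 on SHRSP replicate 2. That array lay 12.8-fold above the median of the other 17 and 8.07-fold above the next. With all 18 arrays no comparison called Lhb, and its change with age in the arrays labelled SHRSP was 1.29 ± 0.65 (limma adjusted p = 0.164), or 0.09 ± 0.12 without replicate 2 (adjusted p = 0.638). Without both that array and SHR replicate 2 of 3 weeks, a fit chosen after the values were seen, Lhb in the arrays labelled SHR at 6 weeks was higher than in WKY by 0.43 ± 0.11 (adjusted p = 0.0086) and higher than at 3 weeks by 0.36 ± 0.12 (adjusted p = 0.037).

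Fshb, the specific chain of follicle-stimulating hormone, was dim but well above background on all 18 arrays. It read 18.7 to 35.5 on 17 arrays and 111 on SHRSP replicate 2 at 6 weeks, 3.21-fold above the next on the log2 scale. The other 2 arrays of that group read 35.5 and 28.9, against 18.7, 19.8 and 27.9 on those labelled SHRSP at 3 weeks, so the groups did not overlap even without the high array, as held with it for 43.7% of all genes. Fshb was higher in the arrays labelled SHRSP than in WKY at 6 weeks by 1.02 ± 0.33 (limma adjusted p = 0.030; 31.6% of all genes called), and by 0.45 ± 0.14 without replicate 2 (adjusted p = 0.032). That call was lost without any 1 of the WKY arrays (adjusted p between 0.063 and 0.078), with quantile normalization (adjusted p = 0.056), with slide as a random block (1.08, adjusted p = 0.133) and with only the groups compared (adjusted p = 0.158).

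Pomc, the precursor of corticotropin, melanocyte-stimulating hormones and beta-endorphin, was read well above background on all 18 arrays and had 2 high arrays. Its intensity lay between 835 and 1569 on 16 arrays. It was 12248 on SHR replicate 2 at 3 weeks and 10024 on SHRSP replicate 2 at 6 weeks, 12.2-fold and 9.87-fold above the median of the other 16. SHR replicate 2 of 3 weeks was the highest of the 18 arrays for 1 of the 7 tested genes, Pomc, and for 2.98% of all genes. The high array of 3 weeks was not high in most of the other hormones: of the 18 arrays it ranked 6 for Gh1, 4 for Prl and Cga, 8 for Tshb, 12 for Lhb and 14 for Fshb. On that array Gh1 read 95.2 and Prl 98.3, below the 426 and 157 of SHR replicate 1, whose Pomc was 1059.

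With all 18 arrays no comparison called Pomc. The arrays labelled SHR at 3 weeks lay above WKY by 1.51 ± 0.80 (limma adjusted p = 0.176), and by 0.36 without replicate 2 (adjusted p = 0.717). The age change in the arrays labelled SHRSP was 1.52 ± 0.80 (adjusted p = 0.182), and 0.60 ± 0.73 without replicate 2 (adjusted p = 0.60). WKY at 6 weeks (1226, 1148 and 1207) did not overlap WKY at 3 weeks (980, 963 and 896), as held for 57.9% of all genes, and the difference of 0.53 ± 0.80 was not called (adjusted p = 0.617). The 2 high arrays enter the spread of every comparison. In a fit without both of them, chosen after their values were seen, Pomc was higher at 6 than at 3 weeks by 0.53 ± 0.15 in WKY (adjusted p = 0.014), by 0.60 ± 0.17 in the arrays labelled SHRSP (adjusted p = 0.029) and by 0.37 ± 0.09 averaged over the labels (adjusted p = 0.0080). In the arrays labelled SHR the same fit gave -0.03 ± 0.17 (adjusted p = 0.908).

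**Figure D3:**
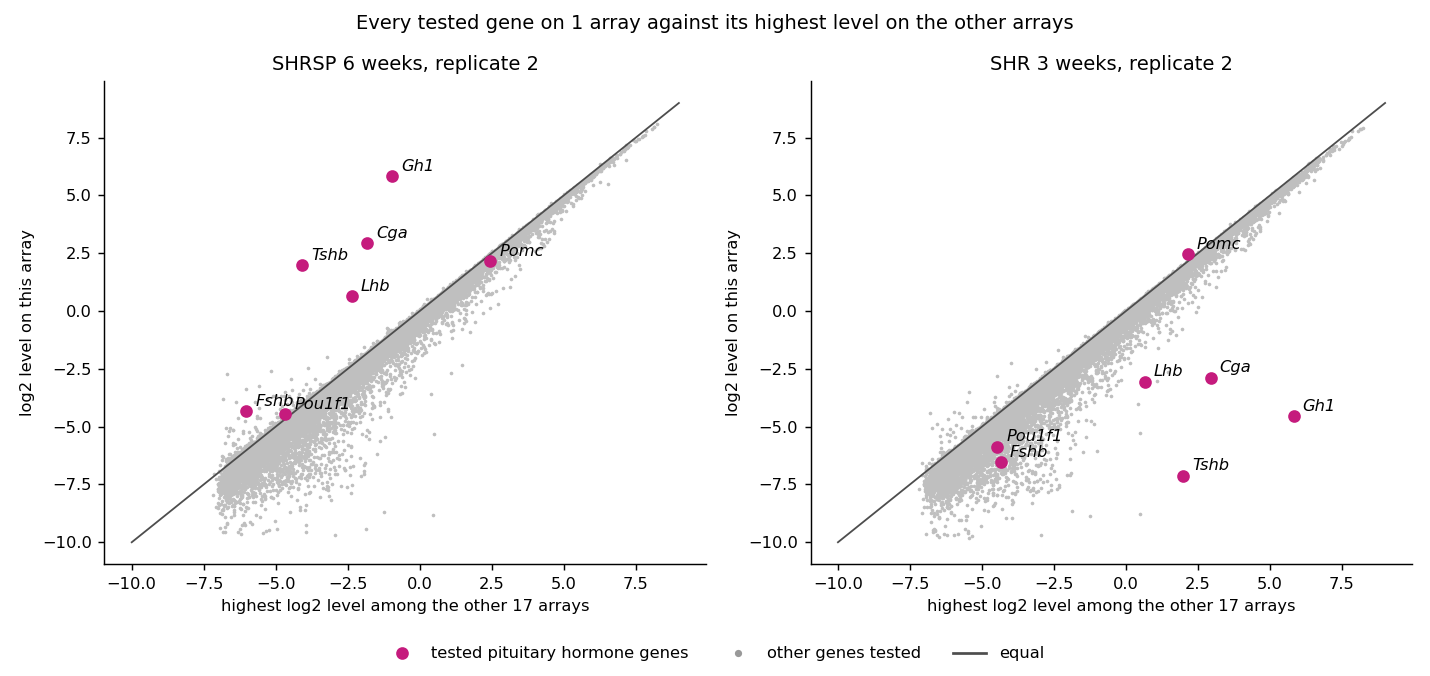
Log2 level of each of the 21204 tested genes on SHRSP replicate 2 at 6 weeks (left, y axis) and on SHR replicate 2 at 3 weeks (right, y axis) against the highest level among the other 17 arrays (x axis); pink points are the 7 tested pituitary genes and the line marks equal levels. Gh1 lies 6.78, Tshb 6.07, Cga 4.78 and Lhb 3.01 above the line on the left, and on the right Pomc is the only 1 of the 7 above it.

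Each comparison that SHRSP replicate 2 at 6 weeks enters was computed with and without it. Between 6 and 3 weeks in the arrays labelled SHRSP, 4 of the 7 tested genes rose and none fell (limma; 25.0% of all genes called, 19.3% higher), and their median difference was 1.52, against 0.08 over all genes. The groups did not overlap for 7 of the 7, against 43.7% of all genes. Gh1 passed the filter on dim probes through these 3 arrays of 6 weeks alone and Tshb through the groups of 6 weeks alone. Both had to differ, so these counts are a description, and the adjusted p of either gene between the ages is printed as the fit gave it and supports nothing.

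Gh1 was at least 92.9-fold higher, since no array of 3 weeks was well above background, and at least 8.16-fold higher without replicate 2. The fitted log2 difference was 8.11 ± 2.70 (adjusted p = 0.041), and 4.60 ± 2.24 without replicate 2 (adjusted p = 0.168). Tshb was at least 29.8-fold higher, and at least 5.61-fold without replicate 2, with fitted differences of 5.41 ± 1.54 (adjusted p = 0.021) and 3.00 ± 0.96 (adjusted p = 0.045). Cga rose by 3.64 ± 1.11 (adjusted p = 0.028) and by 1.80 ± 0.59 without it (adjusted p = 0.048), and Fshb by 1.20 ± 0.33 (adjusted p = 0.018) and 0.63 ± 0.14 (adjusted p = 0.0079). The call of Gh1 was lost without that array, and those of Cga and Fshb were kept with smaller values. Tshb was called in that fit too, but the same filter applied to it, so that call supports nothing. No slide held both groups. With slide as a random block the values were about as large, 7.65 ± 3.59 for Gh1, 5.35 ± 2.07 for Tshb, 3.65 ± 1.48 for Cga and 1.15 ± 0.44 for Fshb, and none was called (adjusted p = 0.195, 0.119, 0.136 and 0.112). That fit called 10.3% of all genes. None of the 4 was called with only the groups compared (adjusted p between 0.110 and 0.153), and normexp lost Gh1 (4.63, adjusted p = 0.080) and Tshb (3.04, adjusted p = 0.056). Quantile normalization lost Gh1 (adjusted p = 0.058) and Fshb (adjusted p = 0.059), and in all Gh1 was lost in 11 of 14 other settings. The calls also needed the arrays of 3 weeks: without SHRSP replicate 1 of that age they were lost for all 4 (adjusted p = 0.106, 0.058, 0.055 and 0.061), and without replicate 2 likewise (adjusted p = 0.097, 0.053, 0.055 and 0.057). Without replicate 3 of 3 weeks, Gh1 (adjusted p = 0.069) and Cga (adjusted p = 0.087) were lost, and without replicate 3 of 6 weeks Gh1 (adjusted p = 0.058).

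In the comparison of SHRSP with SHR labels at 6 weeks none of the 7 tested genes was called (42.9% of all genes), with Gh1 at 3.24 ± 2.70 (adjusted p = 0.353) and Tshb at 3.43 ± 1.54 (adjusted p = 0.086). Without replicate 2, Gh1 stood at -0.27 ± 2.24 (limma adjusted p = 0.939). The tested Pou1f1 probe was then lower by 1.08 ± 0.17 (adjusted p = 0.00076; 35.6% of all genes called). With replicate 2 its value was -0.63 ± 0.28 (adjusted p = 0.089). SHR lay on slide 4 and SHRSP on slide 5, so for this probe slide and label cannot be told apart there. At 3 weeks this comparison called none of the 7 (4.24% of all genes), and Gh1, not well above background on any array labelled SHRSP, was at least 6.02-fold higher in those labelled SHR (adjusted p = 0.487). That bound rested on single arrays: SHR replicate 3 was not well above background, and the bound was 2.37-fold without replicate 1, 4.91-fold without replicate 2 and 18.7-fold without replicate 3. Averaged over the labels, Cga, Tshb and Fshb were called between 6 and 3 weeks, Fshb with 0.49 ± 0.19 (adjusted p = 0.049), a call that was lost in 17 of 26 other settings. Without replicate 2, Cga was higher by 2.22 ± 0.32 (adjusted p = 0.00014) and Fshb by 0.30 ± 0.07 (adjusted p = 0.0059). Gh1 averaged over the labels stood at 3.13 ± 1.56 (adjusted p = 0.114) and at 1.96 without it (adjusted p = 0.205). Against WKY at 6 weeks, Gh1 in the arrays labelled SHRSP stood at 6.57 ± 2.70 (adjusted p = 0.078), and at 3.07 without replicate 2 (adjusted p = 0.346).

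**Figure D4:**
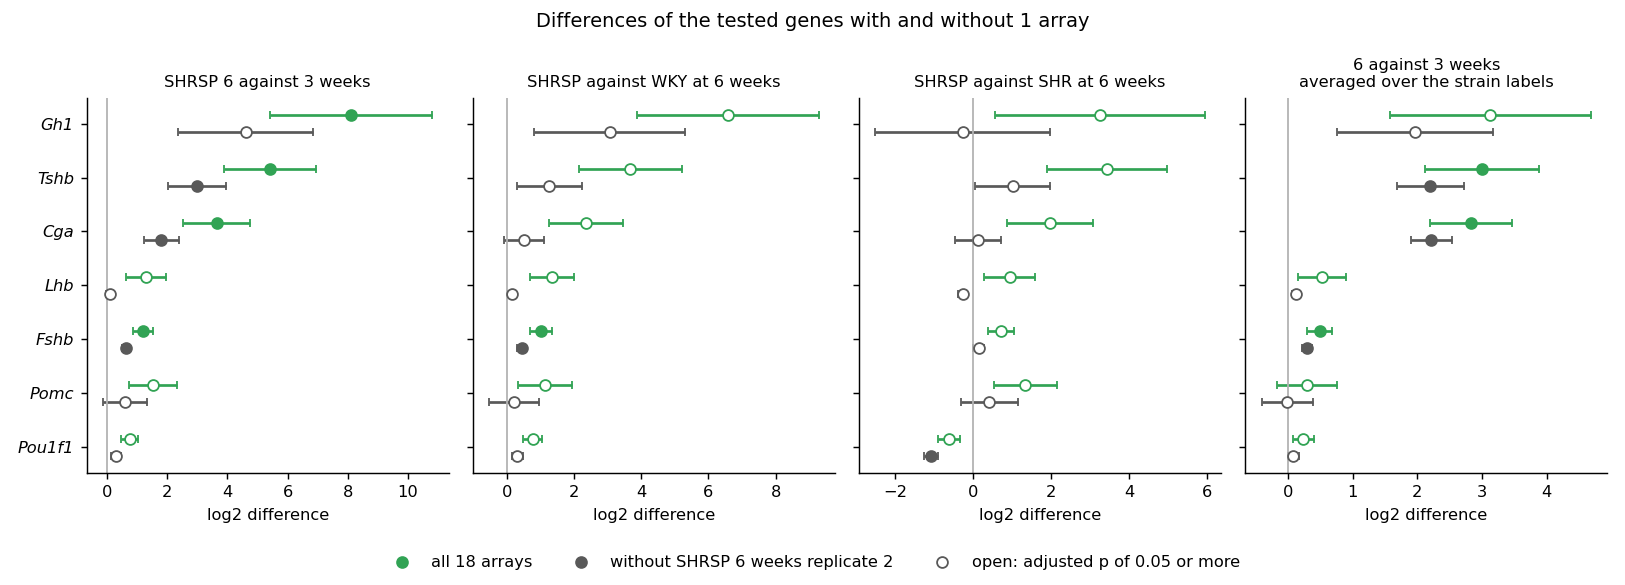
Log2 difference (x axis) with its standard error for the 7 tested genes in 4 comparisons, with all 18 arrays (green) and without SHRSP replicate 2 at 6 weeks (grey); filled points had an adjusted p under 0.05. Gh1 moves from 8.11 to 4.60 in the age change of SHRSP and is then not called, while Cga and Fshb remain filled there. Tshb is filled there too, but it passed the filter on dim probes through groups of 6 weeks alone.

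Other genes that pituitary cells use were compared on the same arrays. Of 9 tested regulators of pituitary cell types, 9 receptors for hypothalamic signals and 15 genes of hormone processing and secretory granules, only Dlk1, an imprinted gene of somatotropes, was highest on SHRSP replicate 2 at 6 weeks. Dlk1 stood there at -3.66, 1.05 above the next array. Tbx19, the factor of corticotropes and melanotropes, stood at -3.15 there and at -3.23 on SHR replicate 2 of 3 weeks, inside its range of -3.78 to -2.82. Trhr, the thyrotropin-releasing hormone receptor, stood at -5.68, within -5.91 to -5.36. Many genes of these 3 lists are known to be used in the brain as well as in the gland.

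Between 6 and 3 weeks in the arrays labelled SHRSP, 4 of the 9 regulators rose and none fell, with a median of 0.26, where 19.3% of all genes rose, 5.65% fell and the median was 0.08. Lhx4, a LIM-homeodomain factor of the early gland, rose by 1.15 ± 0.37 (adjusted p = 0.038) and Sox2, of pituitary and neural stem cells, by 0.44 ± 0.07 (adjusted p = 0.00081). Of the 9 receptors, with a median of 0.05, 1 rose and none fell: Avpr1b, the vasopressin receptor of corticotropes, by 1.02 ± 0.24 (adjusted p = 0.0084). Of the 15 processing genes, with a median of 0.12, 2 rose and none fell, Chgb by 0.21 ± 0.06 (adjusted p = 0.020) and Pam by 0.13 ± 0.05 (adjusted p = 0.049). Without replicate 2 the counts that rose were 3, 1 and 0. That fit called 19.5% of all genes in either direction, against 25.0% with replicate 2. No slide held both groups of this comparison.

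Upstream of the gland, 4 of 17 tested hypothalamic hormone and peptide genes rose and none fell in the same comparison, a share near the 19.3% of all genes that rose, with a median of 0.10. Ghrh, whose product acts on Ghrhr, rose by 0.61 ± 0.07 (adjusted p = 4.7e-05) and stood at -2.78, -2.68 and -2.77 on the 3 arrays of 6 weeks, an even level with replicate 2 the highest of all 18 arrays. In WKY, Ghrh fell by 0.22 ± 0.07 with age (adjusted p = 0.022). Sst, the somatostatin gene that restrains growth hormone release, was lower than in WKY at 6 weeks by 0.69 ± 0.07 (adjusted p = 5.6e-06) in the arrays labelled SHRSP and by 0.74 ± 0.07 (adjusted p = 2.6e-06) in those labelled SHR. Of the 17 genes, 3 were higher and 3 lower there for SHRSP (31.6% of all genes called). For SHR 6 were higher and 3 lower (40.9% called). The groups in each comparison of this paragraph lay on different slides, so the differences compare slides as well as groups. With slide as a random block, 15.1% of all genes were called for SHRSP and 25.4% for SHR against WKY at 6 weeks. The RNA was of whole brain, so the part of the hypothalamus in these levels is not known.

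Among 16 tested receptors and feedback targets of the pituitary hormones, 3 rose and 3 fell between 6 and 3 weeks in the arrays labelled SHRSP. The share that rose was near the 19.3% of all genes that rose, and 5.65% of all genes fell. Igf1, the growth factor that growth hormone induces, rose by 0.67 ± 0.07 (adjusted p = 1.7e-05), and Dio2, which activates thyroid hormone, fell by 0.47 ± 0.08 (adjusted p = 0.00093). Igf1 stood at 1.28, 1.22 and 1.09 on the arrays labelled SHRSP at 6 weeks, so the array with the highest Gh1 was not the highest for Igf1. Tshr, the thyrotropin receptor, was higher than in WKY at 3 weeks by 1.28 ± 0.13 (adjusted p = 1.1e-05) in the arrays labelled SHR and by 1.01 ± 0.13 (adjusted p = 7.0e-05) in those labelled SHRSP. In these comparisons 2 of the 16 genes were higher and 2 lower for SHR (28.5% of all genes called). For SHRSP 5 were higher and 2 lower (40.5% called). Cga was called in both as well, while Tshb, the ligand's own chain, was not well above background on most arrays of 3 weeks. A link between Tshr and either chain was not tested. These comparisons set slides as well as groups against each other, and only SHR replicate 1 of 3 weeks shared a slide with WKY. With slide as a random block, 10.3% of all genes were called for the SHRSP age change. At 3 weeks that fit called 15.3% for SHR and 24.4% for SHRSP against WKY.

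Over the 18 arrays, Fshb (Pearson r = 0.833), Lhb (0.774) and Tshb (0.759) were the members most like Gh1. Their r was 0.619, 0.505 and 0.421 without SHRSP replicate 2 at 6 weeks, so much of this likeness rested on 1 array. Outside the 9 genes, the levels most like Gh1 were those of C8h11orf71, Gp9, Fam151a, Cxcl16, Epcam, Wnt6, Prr12, Cryba2, Enpep and Wdr27, with r between 0.762 and 0.821. Without SHRSP replicate 2 at 6 weeks these 10 had r between 0.468 and 0.769. Those outside the 9 genes most like Pomc were Slc38a11, Bex4, Tmem260, Xpo1 and Slc38a4 (r between 0.735 and 0.774), and without the 2 high arrays r lay between -0.08 and 0.69. The 5 outside them most like Cga were Hbegf, Pdpn, Clu, Ret and Chd1l (r between 0.852 and 0.899, and between 0.762 and 0.881 without SHRSP replicate 2). The arrays share slides and group differences, and no p is given for these values.

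Markers of other tissues at the border of the brain were set beside these levels. Tph1 and Asmt, enzymes of pineal serotonin and melatonin synthesis, were high on SHRSP replicate 2 at 3 weeks (0.13 and -2.73), SHR replicate 2 at 6 weeks (-0.45 and -3.17) and SHRSP replicates 1 and 3 at 6 weeks. On SHRSP replicate 2 at 6 weeks, the array with the highest hormone levels, they stood at -5.33 and -5.11, among the low arrays. The summed linear level of 11 tested pineal and photoreceptor genes was 0.842 on that array, the lowest of a group range of 0.842 to 2.66, and 0.838 to 0.948 on the 6 WKY arrays. Aanat, another pineal enzyme gene, went another way than Tph1 and Asmt. It was highest on WKY replicate 2 at 3 weeks, in a range of -5.28 to -3.51. Of 15 tested meningeal and fibroblast genes, 13 rose and none fell between 6 and 3 weeks in the arrays labelled SHRSP, where 19.3% of all genes rose and 5.65% fell. Without replicate 2 of 6 weeks, 12 still rose, so this did not rest on that array. That fit called 19.5% of all genes in either direction, against 25.0% with replicate 2. In WKY, 7 of the 15 rose with age and 2 fell (44.2% called). Ptgds, the prostaglandin D synthase of the meninges, was even over the 3 arrays labelled SHRSP at 6 weeks at 6.62, 6.63 and 6.59. The summed linear level of 15 choroid plexus genes was 179 on SHRSP replicate 2 at 6 weeks, the highest of the 18 arrays, in a group range of 168 to 179, and 3 of the 15 were highest there. That of 10 tested blood genes was 242 on that array and 236 on SHR replicate 2 at 3 weeks, the 2 highest of the 18 arrays and the 2 with high Pomc, and it ranged from 160 to 217 on the other 16. Of the blood genes 2 were highest on SHRSP replicate 2. The summed level of the meningeal genes was also highest on SHRSP replicate 2, at 132, in a group range of 129 to 132. The part of these tissues in the levels of the pituitary genes was not tested.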

How the data were processed

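Whole-brain total RNA of 18 rat samples was hybridised to 1-colour Agilent arrays. Per the file headers, Agilent Feature Extraction 10.5.1.1 made the deposited processed intensity of each spot, background-subtracted, and the number of arrays limits the precision. From the deposited intensity, log2 values were taken and the 75th percentile of each array was subtracted. Spots marked as outliers were left out (0.445% to 1.49% of an array), no spot was saturated, and probes were kept if well above background on all 3 arrays of at least 1 group. That left 24282 of 30367 probes and, with the brightest kept probe per gene, 21204 genes. Current symbols came from RefSeq through 17328 probes matched by accession.

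All 18 arrays were fitted with 6 group means in limma 3.58.1 (R 4.3.3) and 12 two-sided comparisons, with Benjamini-Hochberg adjustment over all genes and a call at an adjusted p under 0.05. P-values measure the spread between the labelled samples. Bounds ("at least N-fold") use the lowest signal among probes well above background on each array. Likeness between genes was Pearson's r over 18 arrays. The named genes are the members, the listed genes that were called, and the genes most like Gh1, Pomc and Cga; single genes such as Dlk1, Pitx1, Igf1 and Ghrh were also picked after their values were seen. The members and lists were chosen with earlier results of these data known. Same-numbered samples of different groups did not deviate together (median r = -0.02 over 45 pairs), so the numbers do not pair samples. The fit was tested on simulated data. Alternatives were quantile normalization, normexp background correction, no filter on dim probes, slide or scan day as a block, the replicate number as a block, only the groups compared, and each array left out.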

Additional observations from a re-analysis of the deposited data

Results flagged for a closer look

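The age change of the tested Pou1f1 probe differed from that of WKY, by a test of the difference itself, by 1.88 on the log2 scale in the arrays labelled SHR (limma adjusted p = 0.0021) and by 1.72 in those labelled SHRSP (adjusted p = 0.0060). In WKY the mean of the probe was lower at 6 weeks, and in the arrays labelled SHR and SHRSP it was higher. The ages did not overlap in WKY or SHRSP, as held for 57.9% and 43.7% of all genes. The groups lay on different slides. With slide as a fixed block the WKY age change was -0.27 (limma adjusted p = 0.845). With slide as a random block the SHRSP difference in age change was 1.51 (adjusted p = 0.103).

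Prl, which the tests did not use because no group had it well above background on all arrays, had an intensity of 24790 on SHRSP replicate 2 at 6 weeks, against 2.54 to 6.84 on 14 arrays. The second probe of Pou1f1, also outside the tests, read 89.6 on the same array and 2.44 to 7.15 on the other 17.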

How the results depend on the processing

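Counts are of the 7 tested genes called. Every call kept its direction in the settings run. With all arrays the counts were 1, 2 and 0 at 3 weeks (SHR and SHRSP against WKY, SHRSP against SHR), 1, 1 and 0 at 6 weeks, 2, 1 and 4 for the age changes of WKY, SHR and SHRSP, 3 averaged over the labels, and 1 and 1 for the differences in age change. In the same order, 28.5%, 40.5% and 4.24% of all genes were called at 3 weeks and 40.9%, 31.6% and 42.9% at 6 weeks. The age changes called 44.2%, 48.2% and 25.0% of all genes, the average 46.8% and the differences in age change 39.2% and 30.8%. With normexp the counts were 0 and 1 against WKY at 3 weeks, 1 for SHRSP against SHR at 6 weeks, 0 for the WKY and 2 for the SHRSP age change. In that order, 26%, 39.9%, 43.1%, 44% and 21.1% of all genes were called. Quantile normalization gave 0 for SHRSP against WKY at 6 weeks, 0 for the SHR and 2 for the SHRSP age change, and no filter on dim probes gave 1 for SHRSP against WKY at 3 weeks and 3 for the SHRSP age change. The shares of all genes were 28.7%, 43.6% and 18.3% with quantile normalization, and 30.7% and 17.7% without the filter. Each of these 3 settings gave 2 averaged over the labels, where normexp called 48.6%, quantile normalization 40.7% and no filter 37.4% of all genes. Slide as a fixed block could be fitted for the 3-week comparisons and the WKY age change, and gave 0 in each, where it called 7.36%, 5.43%, 2.65% and 3.29% of all genes. Slide as a random block gave 0 for SHRSP against WKY at both ages, 1, 0 and 0 for the age changes, 1 averaged over the labels and 0 for the SHRSP difference in age change. It called 24.4% and 15.1% of all genes for SHRSP against WKY and 25.7%, 31.5% and 10.3% for the age changes. The average had 29.1% and the SHRSP difference in age change 6.68%. Scan day as a block gave 0 for the WKY and SHR age changes (17.1% and 7.88% of all genes called) and could not be fitted for SHRSP at 6 weeks. With only the groups compared, the counts were 2 and 0 against WKY at 6 weeks, 4 and 0 for the WKY and SHRSP age changes and 2 for the SHR difference in age change. The shares of all genes there were 40.3% and 25.7%, 44% and 17.7%, and 37.8%. Without both high Pomc arrays, a setting chosen after seeing the data, the counts were 2 for SHR against WKY and 1 for SHRSP against SHR at 6 weeks, 3, 2 and 3 for the age changes, 4 averaged over the labels, and 2 and 3 for the differences in age change. That setting called 39.6% and 35.2% of all genes at 6 weeks and 42.6%, 39.5% and 19% for the age changes. The average had 42.6% and the differences in age change 32.8% and 25.6%. The cause of the changes in these counts was not tested.

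Leaving out 1 array at a time gave 0 to 1, 0 to 2 and 0 to 0 at 3 weeks, 1 to 1, 0 to 5 and 0 to 3 at 6 weeks, 2 to 2, 0 to 1 and 0 to 5 for the age changes, 2 to 4 averaged over the labels, and 1 to 1 and 1 to 3 for the differences in age change. Over all genes these runs called 14.8% to 37%, 32.5% to 36.9% and 2.97% to 3.82% at 3 weeks. At 6 weeks they called 32.9% to 37.1%, 22% to 30.1% and 33.8% to 40.1%. The age changes had 36% to 39.6%, 38.3% to 49.1% and 16.5% to 21.5%. The average had 42.7% to 50.7%, and the differences in age change 33.4% to 43.8% and 25.3% to 31.2%. With the replicate number as a block the averaged count was 2 (45.4% of all genes called), with Fshb lost, and no other count changed. The rise of Cga averaged over the labels was called in 26 of 26 other settings (adjusted p from 0.00014 to 0.023). With normexp, 28 of the 42 group levels of the 7 tested genes moved by more than their spread. Gh1, Prl and Tshb were well above background on 9, 4 and 11 of the 18 arrays, and elsewhere their levels are upper limits.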

Other observations

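Pcdhb1, a clustered protocadherin gene, stood further above all other arrays on SHRSP replicate 2 at 6 weeks than any gene outside the pituitary set with a name, by 3.99 on the log2 scale. Smagp (3.03), Nphs1, the nephrin gene (2.66), and Dapl1 (2.56) followed, and in all 23 named genes outside the set were more than 1 apart on that array. Gata1, the erythroid transcription factor gene, was 1.55 and Gp9, of platelets, 1.13 above all others there, and Hbb was highest on it at 6.36, in a range of 5.65 to 6.36 over the 18 arrays. On SHR replicate 2 at 3 weeks, the array with the highest Pomc, the named genes furthest apart were Or6d12b (2.42), Wnt7b (1.74), Acsm1 (1.69), Dmrtc1c1 (1.66) and Slpi (1.62), and unnamed probes lay among them. These genes were chosen after their values were seen.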
